A study of Sus scrofa with 48 samples.

Results

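Complement and coagulation proteins are secreted into blood mostly by the liver, and 43 of their genes were chosen by name to be followed here in pig liver. A member was measured by every array probe that carried its symbol or an accession mapped to it, and the brightest probe stood for the gene. Of the 43 genes, 38 were matched, by 98 probes, among 10591 named genes tested. All 38 exceeded background in every one of the 48 livers. The members F13B, F11, SERPIND1, SERPINF2 and CFD were not analysed here.

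The livers came from 48 Large White barrows, castrated males, of 2 lines that had been divergently selected over 8 generations for residual feed intake (RFI). RFI is the feed intake of a pig minus the intake predicted from its growth and backfat thickness. Low RFI pigs (RFIneg) eat less than predicted and high RFI pigs (RFIpl) eat more, and a selected line carries drift as well as selection. In each line, 12 pigs were fed a high fat, high fiber diet (HF) and 12 a low fat, low fiber diet (LF). The diets ran from 74 days of age until the pigs were killed 2 h after a last meal. Liver RNA of each pig was hybridized with 1 dye to an Agilent array of its own, with no pooling of animals.

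Complement is a cascade of plasma proteases that tags and punctures microbes. It starts from antibody (C1R and C1S), from sugars on microbial surfaces (MBL2 with its proteases MASP1 and MASP2) or by slow activation of C3 itself, and it ends with C5 to C9, which assemble a pore in the target membrane. Coagulation is a parallel cascade of proteases that ends with thrombin (from F2) cutting fibrinogen (FGA, FGB, FGG) into fibrin, which plasmin (from PLG) dissolves. Hepatocytes make most of these proteins, and the level of several of them rises in the acute phase response to inflammation.

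The members described below as called, or as widely spread between pigs, were read with probes of 60 bases. Those that lie within the coding part of their transcript are shown, from 5′ to 3′ and all in lower case because no base of them is singled out.
C9: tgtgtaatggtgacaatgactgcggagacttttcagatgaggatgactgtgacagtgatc
MBL2: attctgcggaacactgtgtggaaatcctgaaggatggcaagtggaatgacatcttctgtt
CLU: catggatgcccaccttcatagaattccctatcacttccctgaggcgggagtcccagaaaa
CFP: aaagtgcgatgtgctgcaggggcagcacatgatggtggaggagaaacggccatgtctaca
MASP2: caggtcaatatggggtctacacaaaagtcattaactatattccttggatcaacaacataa
The C9, MBL2 and CLU sequences belong to the brightest probe of the gene, and the CFP and MASP2 sequences to the next brightest one.

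Levels are log2 intensities relative to the median of the array over the tested probes, so a level of 0 is the middle of an array and a difference of 1 is a doubling. A level says nothing about one gene against another, because probes differ in brightness. In bulk liver, fewer cells of a type and less RNA per cell cannot be told apart. The share of probes well above background was 65.8% on the lowest array and 77.2% on the highest, and the median intensity of the tested probes ranged from 141.2 to 336 scanner units. Arrays were spread over 6 slides and 2 scan days, with 2 arrays of each group on every slide. As a check of the tissue, 8 of 10 listed hepatocyte markers were tested, each of them exceeded background in all 48 livers, and their mean level lay between 9.81 and 10.52. Pigs of a group are numbered only to name them. A pair of livers stood apart for members: replicate 9 of the low RFI pigs fed LF, with by far the lowest C9, and replicate 12 of the high RFI pigs fed LF, which was the farthest from its group median for 8 of the 38 members. Calls that are gained or lost without either liver are given beside the result.

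The first question was whether the lines differed. CLU, CFP and C5, all complement members, were lower in the low RFI line, by FC of 1.23, 1.2 and 1.15. Without replicate 12 of the high RFI pigs fed LF the calls were CLU, CFP and the fibrinogen chain FGG, which was higher in the low RFI line, and C5 was lost. With limma (P under 0.01 and FC over 1.1), 3 of 38 members were called, or 7.89%, all lower, against 6.77% of all named genes in either direction and 3.36% lower. In either direction the share was near the background. At a P-BH (Benjamini-Hochberg) of 5% CLU alone was called, against 3.81% of named genes, and 6 members had an unadjusted P under 0.05, against 14.7%. The median line difference was -0.006 over the members and 0.006 over the named genes, 19 members lay on each side of 0 (52.9% of named genes were positive), and the ranges of the lines overlapped for 38 of 38 members. Of the 21 complement members 5 lay above 0 (median -0.041), and of the 17 coagulation members 14 did (median 0.062), a split seen in the values and not tested.

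**Figure D1:**
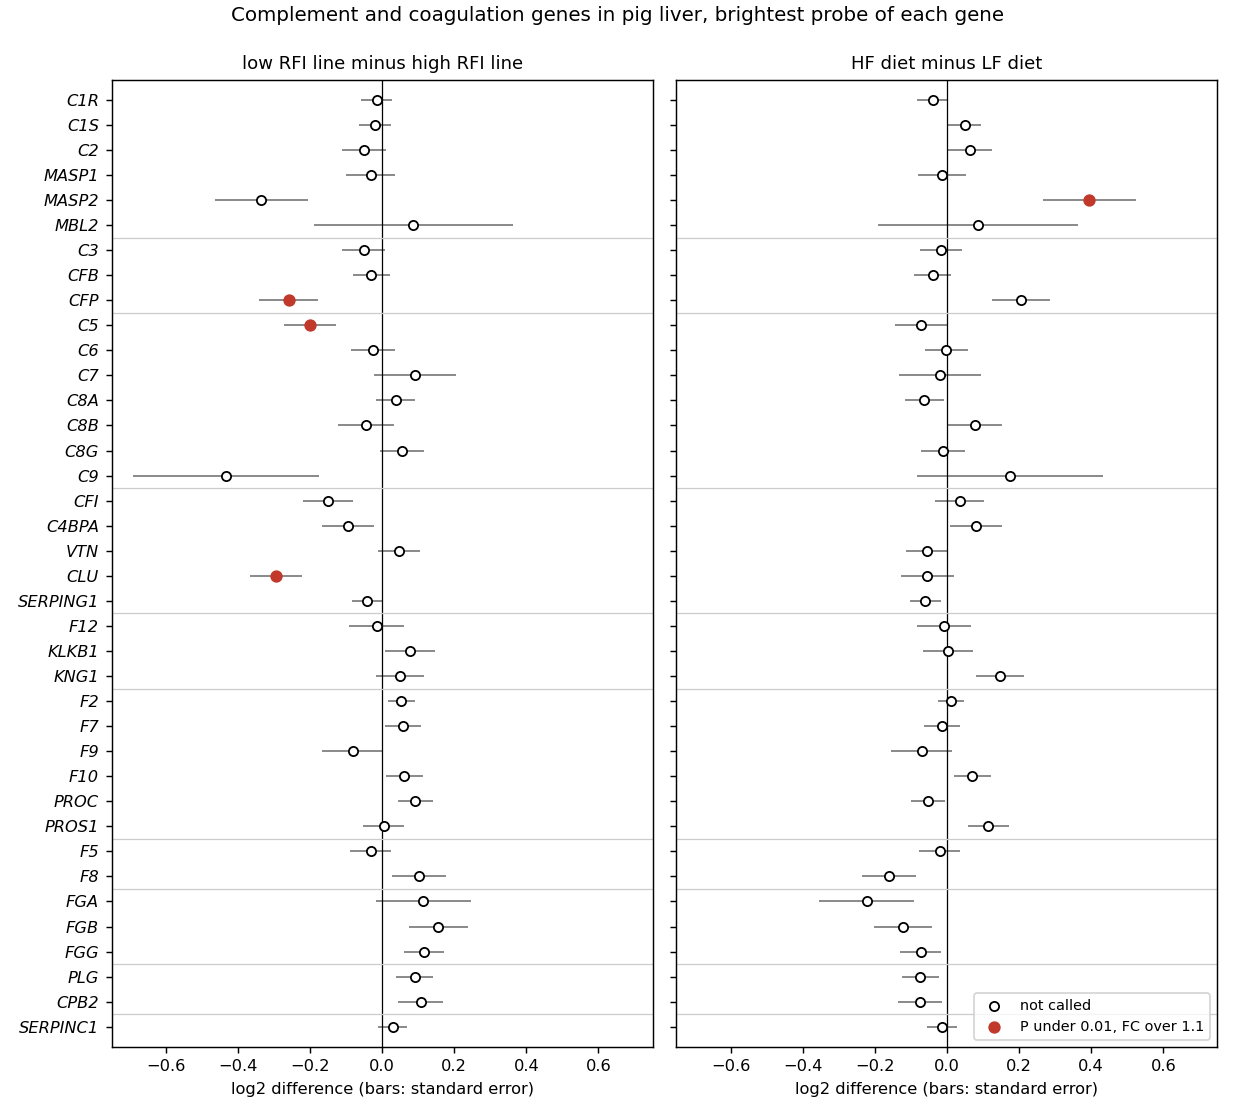
Log2 difference of the 38 members between lines (left, low RFI minus high RFI) and between diets (right, HF minus LF), with bars of 1 standard error and red points for called members; grey lines part the role groups. CLU, CFP and C5 are the called members on the left, at -0.29, -0.26 and -0.20, and MASP2 is the called member on the right, at 0.39.

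Clusterin (CLU), a chaperone that binds the forming terminal complex and keeps it out of membranes, ranged from 7.29 to 8.37 (median 7.69) in the low RFI line and from 7.63 to 8.40 (median 8.06) in the high RFI line. The lines overlapped, but 21 of 24 low RFI pigs lay below the median of the high RFI pigs. The line difference was -0.29 (SE 0.07, limma P = 0.000194, P-BH = 0.01). It was negative on 6 of 6 slides, from -0.46 to -0.13, and it was -0.31 and -0.28 on the 2 scan days. With HF the line difference was -0.26 (P = 0.0157) and with LF it was -0.33 (P = 0.00238). CLU was read by a single probe, so no other probe could be set beside it.

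Properdin (CFP), which stabilizes the C3-cleaving enzyme of the alternative pathway and is made by myeloid cells rather than hepatocytes, ranged from 3.96 to 5.23 (median 4.47) in the low RFI line. In the high RFI line it ranged from 4.26 to 5.42 (median 4.73). The lines overlapped over most of their ranges, and 18 of 24 low RFI pigs lay below the high RFI median. The line difference was -0.26 (SE 0.08, limma P = 0.00258, P-BH = 0.0599) on the brightest probe, and -0.29 (P = 0.00139, P-BH = 0.0398) on the other, whose sequence is printed above. It was negative on 5 of 6 slides on either probe. CFP was also 0.21 higher with HF than with LF, which did not pass the call (SE 0.08, P = 0.0146, P-BH = 0.23). Without replicate 12 of the high RFI pigs fed LF it was 0.23 higher and was called (P = 0.00603, P-BH = 0.178).

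Markers of Kupffer cells, the macrophages of the liver, are given beside CFP. Of the 8 tested (9 listed), 7 were lower in the low RFI line, with a median of -0.181, and 6 were higher with HF, with a median of 0.125. None was called for line or diet over all pigs, against 6.77% and 4.19% of named genes. For line 3 of 8 had an unadjusted limma P under 0.05, against 14.7% of named genes. With HF alone, 5 were lower and 3 higher in the low RFI line (median -0.052). There limma called 0, against 3.3% of named genes, with 0 at an unadjusted P under 0.05, against 8.84%. With LF alone, 7 were lower (median -0.277) and 1 was called, against 3.66% of named genes (CSF1R, -0.34, P = 0.00919), a call lost without either of the livers that stood apart (P = 0.0115 and P = 0.0151). Without replicate 9 of the low RFI pigs fed LF, VSIG4 was called over all pigs (-0.21, P = 0.00885). In that fit VSIG4 (-0.32, P = 0.00597) and C1QA (-0.36, P = 0.00947) were also called with LF alone. Their mean level ranged from 3.39 to 4.22 in low RFI pigs fed HF, from 3.14 to 3.89 in low RFI pigs fed LF, from 3.29 to 4.15 in high RFI pigs fed HF and from 3.42 to 4.28 in high RFI pigs fed LF. VSIG4, a complement receptor of Kupffer cells, differed by -0.20 between lines (P = 0.014) and by 0.18 between diets (P = 0.022). MARCO was not analysed here, and each of the 8 tested markers exceeded background in all 48 livers. The part of macrophages in the CFP difference was not tested.

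C5, which starts the terminal pathway when it is cut, ranged from 6.83 to 7.80 (median 7.38) in the low RFI line and from 7.22 to 8.45 (median 7.50) in the high RFI line. The medians lay close together, the lowest values belonged to low RFI pigs, and 17 of 24 of these lay below the high RFI median. The line difference was -0.20 (SE 0.07, limma P = 0.00837, P-BH = 0.126), and -0.22 (P = 0.0164) on the other probe, which was not called. The highest value, 8.45, belonged to replicate 12 of the high RFI pigs fed LF. Without that liver the difference was -0.16 (P = 0.0146), and C5 was no longer called. The call was also lost with quantile normalization (P = 0.01), normexp (P = 0.0139), the median signal (P = 0.0105), the deposited log2 values (P = 0.0115) and either scan day alone (P = 0.116 and P = 0.0273).

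**Figure D2:**
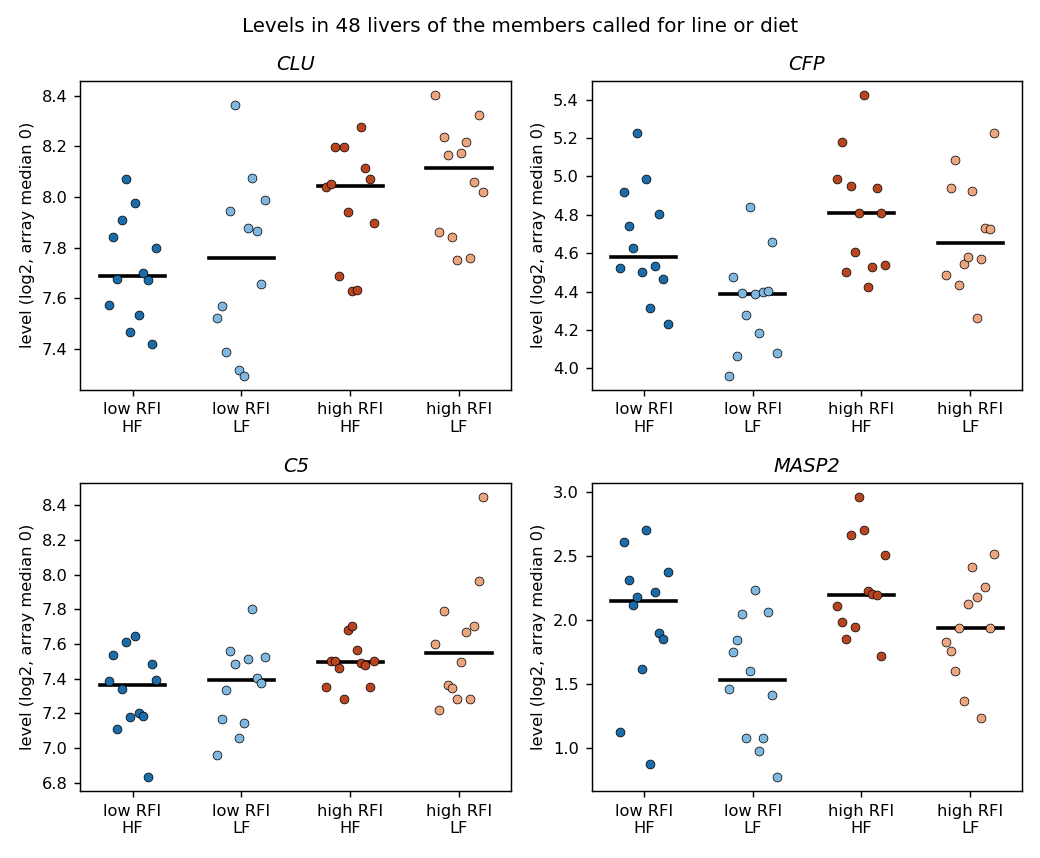
Level (log2, array median 0) of CLU, CFP, C5 and MASP2 in each of the 48 livers by line and diet (12 points per group, brightest probe), with a bar at the group median. CLU medians are 7.69 and 7.76 in the low RFI groups against 8.05 and 8.11 in the high RFI groups, and MASP2 medians are 2.14 and 2.20 with HF against 1.53 and 1.94 with LF.

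Among the other terminal members the brightest probes gave no call for C6, C7, C8A, C8B, C8G or C9. C8A, the alpha chain of the trimeric C8 that inserts into the membrane, differed between its probes. On the brightest probe it ranged from 7.75 to 8.63 (median 8.44) in the low RFI line and from 7.94 to 8.70 (median 8.42) in the high RFI line, ranges that nearly coincide, with a line difference of 0.04 (SE 0.05, limma P = 0.483). On the second probe, about as bright, the low RFI line ranged from 7.99 to 8.91 (median 8.58) and the high RFI line from 7.58 to 8.76 (median 8.19). There 23 of 24 low RFI pigs lay above the high RFI median, and the line difference was 0.40 (SE 0.07, P = 6.23e-07, P-BH = 0.000174). It was positive on 6 of 6 slides, from 0.02 to 0.61, and was 0.55 on the first scan day and 0.25 on the second.

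The probes of C8A share no run of bases longer than 5, so they read different stretches of the transcript. The second probe minus the brightest gave a value within each liver. It ranged from -0.06 to 0.41 (median 0.20) in the low RFI line and from -0.40 to 0.10 (median -0.25) in the high RFI line. It was above 0 in 19 of 24 low RFI pigs and in 5 of 24 high RFI pigs. The difference between lines was 0.36 (2-sided permutation test within diet with 100000 resamples, P = 1e-05, the smallest they can give), a test chosen after the values were seen. A line difference in C8A was thus called on one of its probes and not on the other, and the cause was not tested.

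**Figure D3:**
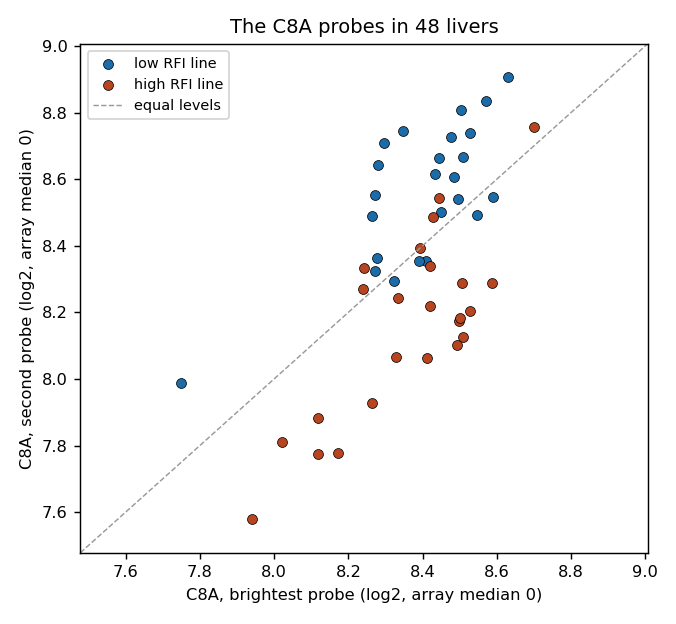
Level (log2, array median 0) of the C8A probes in each of the 48 livers, brightest probe on the x axis and second probe on the y axis, coloured by line, with a dashed line of equal levels. On the second probe 19 of 24 low RFI pigs lie above the dashed line and 19 of 24 high RFI pigs below it.

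C9, which polymerizes to form the wall of the pore, was far lower in 1 of the 48 livers than in the other 47. On the brightest probe, printed above, the other 47 livers ranged from 5.16 to 7.04 (median 6.22), while replicate 9 of the low RFI pigs fed LF stood at 0.30, or 60.8-fold below the median and 4.87 log2 units below the next liver. That value was still well above background. On the second C9 probe the same liver was not well above background, at -4.38, against -1.24 to 2.18 in the other 47. A further probe, unnamed by the rule, shares all 60 bases with the second one and read -5.05 there, against -1.48 to 2.16. The brightest and the second probe share no run longer than 5 bases. Most of the 12 acute phase proteins tested lay above their group median in that liver. CP ranked 3 from the top of the 48 livers, SERPINA3 6, ITIH4 7, CRP (8.41), SAA1 (7.08) and LBP 8, and SAA3 10. HP, HPX and ITIH3 lay within 0.07 of the group median. ORM1 (9.54, rank 47) and HAMP (rank 29) lay below it, at -0.33 and -0.24. The fibrinogen chain FGB was 0.66 above the median of its group.

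In the fit, C9 differed between lines by -0.43 (SE 0.26, limma P = 0.0996) with all livers, the widest difference of any terminal member on its brightest probe, and by -0.19 (P = 0.089) without that liver. The diet difference was 0.18 (P = 0.498) with it and -0.07 (P = 0.556) without it. Its SD within groups fell from 0.92 to 0.39 when that liver was left out, against a median of 0.21 over the members.

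Mannan-binding lectin (MBL2), the sugar sensor that starts the lectin pathway, was the other member with a wide spread. It ranged from 1.60 to 5.94 (median 3.20) in low RFI pigs fed HF, from 0.70 to 5.89 (median 2.94) in low RFI pigs fed LF, from 2.76 to 3.48 (median 3.19) in high RFI pigs fed HF and from 1.94 to 3.68 (median 3.18) in high RFI pigs fed LF. The medians of the groups lay close together, and the extremes in both directions were low RFI pigs. In 3 of them, MBL2 was at 5.94, 5.89 and 5.77, well above the next liver, at 3.95. Those 3 livers came from both diets and from slides 4 and 5, both scanned on the second day. The 3 lowest livers, at 1.60, 1.31 and 0.70, were low RFI pigs on the same 2 slides. The part of the slides in this spread was not tested. The lowest value, 0.70, belonged to the liver with the lowest C9.

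The level of MBL2 differed between lines by 0.09 (SE 0.28, limma P = 0.756) and between diets by 0.09 (P = 0.757). The SD within groups was 1.33 in the low RFI line and 0.42 in the high RFI line. Absolute deviations from the group median, fitted over all tested probes with limma after the values were seen, were 0.61 larger in the low RFI line (P = 0.00331), which did not pass adjustment (P-BH = 0.484). In that fit 25 probes passed at a P-BH of 5%. Its 2 probes have the same 60 bases, so their agreement (a median gap of 0.08) is that of repeated spots and not of independent sequences.

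**Figure D4:**
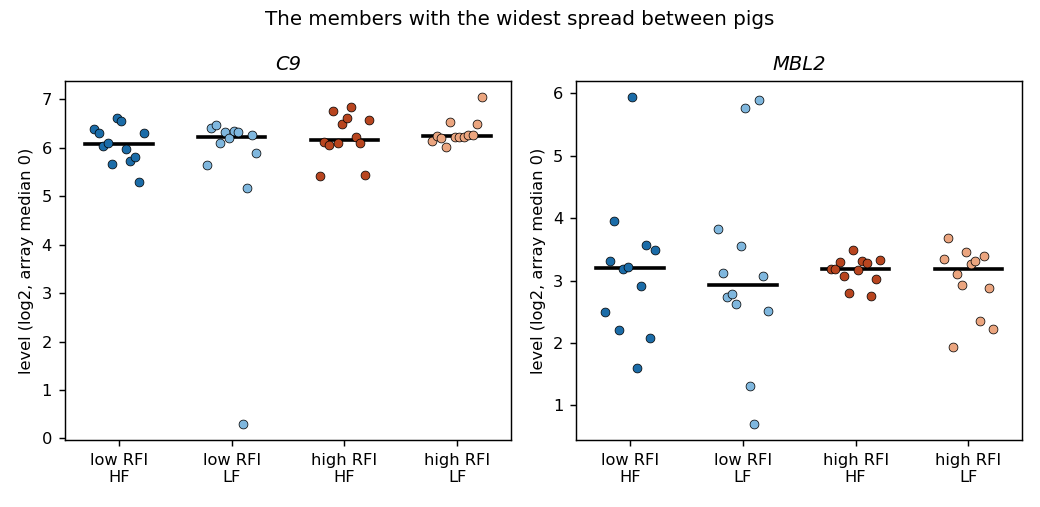
Level (log2, array median 0) of C9 and MBL2 in each of the 48 livers by line and diet (12 points per group, brightest probe), with a bar at the group median. One low RFI pig fed LF has C9 at 0.30 while the other 47 livers range from 5.16 to 7.04, and 3 low RFI pigs have MBL2 above 5.7 while the high RFI pigs end at 3.68.

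Against all named genes most members varied little between pigs of a group. The median SD within groups was 0.21 for members and 0.25 for all named genes, 33 of 38 members had an SD under 0.3, and 11 lay above the median of all named genes. MBL2 (SD 0.99) was at percentile 98.8 of the named genes and C9 (0.92) at 98.4. FGA (0.47) and MASP2 (0.46) came next, at percentiles 85.4 and 84.8. At the other end stood F2, the precursor of thrombin, with an SD of 0.11 at percentile 1.76, and antithrombin (SERPINC1), its main inhibitor, with 0.13 at 5.2.

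The second question was the effect of diet. MASP2, the protease that MBL2 carries and that cuts C4 and C2, was higher with HF than with LF by an FC of 1.31. It was the only member called (1 of 38, or 2.63%, against 4.19% of all named genes in either direction and 2.02% higher), and none passed a P-BH of 5% (0.557% of named genes did). At an unadjusted limma P under 0.05 there were 4 members, against 14.3% of named genes. The median diet difference was -0.013 over the members and -0.016 over the named genes, with 14 members higher and 24 lower with HF (44% of named genes were higher).

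MASP2 ranged from 0.87 to 2.96 (median 2.18) in pigs fed HF and from 0.77 to 2.51 (median 1.79) in pigs fed LF. The ranges overlapped, and 20 of 24 pigs fed HF lay above the median of those fed LF. The diet difference was 0.39 (SE 0.13, limma P = 0.00378, P-BH = 0.14). It was positive on 6 of 6 slides, from 0.18 to 0.63. The probe printed above gave 0.40 (SE 0.16, P = 0.018), and another, dimmer probe, well above background on 44 arrays, gave 0.24 (P = 0.0681), so that neither passed alone. MASP2 also differed between lines by -0.34 (SE 0.13, P = 0.0126, P-BH = 0.161), just outside the cut-off, and by -0.36 (P = 0.00651) on the mean of its probes.

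Whether the line effect depended on diet was tested by the interaction. With limma 0 of 38 members were called for it, against 0.34% of named genes, and 0 members had an unadjusted P under 0.05, against 2% of named genes. CFP differed between lines by -0.37 with LF (P = 0.00262) and by -0.15 with HF (P = 0.192), but the difference of the 2, 0.21 (SE 0.16), had P = 0.196. In pigs fed LF, CFP and CLU were called between lines (2 of 38, or 5.26%, against 3.66% of named genes in either direction and 1.87% lower). In pigs fed HF, 0 members were called with limma, against 3.3% of named genes, and 3 had an unadjusted P under 0.05 (FGB, FGG and CLU), against 8.84%. Without replicate 12 of the high RFI pigs fed LF, FGG was called with HF (0.20, SE 0.07, P = 0.00874), against 0.20 (SE 0.08, P = 0.0182) with all livers. That liver, fed LF, entered this contrast only through the spread shared by the groups. Without replicate 9 of the low RFI pigs fed LF, C5 was called with LF (-0.28, P = 0.00965).

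In the start of the classical and lectin pathways, C1R, C1S, C2 and MASP1 were not called and differed by at most 0.06 in size for line or diet. C1R and C1S are the paired proteases of C1, C2 the protease part of the C3-cleaving enzyme, and MASP1 activates MASP2. C3, the hub protein of all pathways, differed between lines by -0.05 (SE 0.06, P = 0.396), and CFB, the protease of the alternative pathway, by -0.03 (SE 0.05, P = 0.556). Both stayed within 0.04 for diet. CFP was the largest of this group for both effects.

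Of the regulators, CFI, the protease that inactivates C3b, was lower in the low RFI line by 0.15 on its brightest probe, which was not called (P = 0.0336). Its second probe gave -0.23 and was called (SE 0.08, P = 0.00455, P-BH = 0.0865). On that probe 20 of 24 low RFI pigs lay below the high RFI median, and the difference was negative on 5 of 6 slides. C4BPA, which holds C4b for CFI to cut, had the largest diet difference among the regulators, 0.08 (SE 0.07, P = 0.267). Most of its probes carry a record that the reference table assigns to a gene with the synonym APOR, and 2 genes of that table bear the name C4BPA, so its values are uncertain as to the copy. VTN, which keeps terminal complexes soluble, and SERPING1, the inhibitor of C1, differed by 0.05 and -0.04 between lines (P = 0.43 and P = 0.352).

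No coagulation member was called for line or diet with all livers, and their line differences ran from -0.08 to 0.16. In the contact system, which is set off by charged surfaces, KLKB1 (plasma prekallikrein) had the largest line difference, 0.08 (SE 0.07, P = 0.274), and 0.05 (P = 0.48) without replicate 12 of the high RFI pigs fed LF. KNG1, the kininogen from which bradykinin is released, had the largest diet difference, 0.15 (SE 0.07, P = 0.0305, P-BH = 0.291). F12, which starts this pathway, differed by -0.01 (P = 0.846). Among the vitamin K dependent factors, PROC, which becomes the anticoagulant protease that cuts F5 and F8, differed by 0.09 between lines (SE 0.05, P = 0.0625). Its cofactor PROS1 differed by 0.11 between diets (SE 0.06, P = 0.0517). The proteases F7, F9 and F10 and the thrombin precursor F2 differed between lines by -0.08 to 0.06.

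Of the cofactors, F8 (antihemophilic factor, made largely by endothelial cells) differed by 0.10 between lines (SE 0.07, P = 0.178) and by -0.16 between diets (SE 0.07, P = 0.0356, P-BH = 0.307). F5, the cofactor of F10, differed by -0.03 between lines (P = 0.582). SERPINC1 differed by 0.03 between lines and -0.01 between diets (P = 0.482 and P = 0.751). In fibrinolysis, PLG and CPB2, a carboxypeptidase that slows clot lysis, differed by 0.09 (P = 0.0856) and 0.11 (P = 0.0944) between lines, and each by -0.07 between diets.

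The fibrinogen chains, whose genes lie side by side on the assembly Sscrofa11.1, had positive line differences and negative diet differences, and none was called with all livers. FGB ranged from 8.57 to 9.70 (median 9.13) in the low RFI line and from 8.38 to 9.89 (median 8.97) in the high RFI line, and the lines overlapped over nearly the whole range. Its line difference was 0.16 (SE 0.08, limma P = 0.0596). FGG differed by 0.12 (SE 0.06, P = 0.0456, P-BH = 0.326) and FGA by 0.11 (SE 0.13, P = 0.394). Without replicate 12 of the high RFI pigs fed LF, FGG was called, at 0.14 (SE 0.05, P = 0.00736, P-BH = 0.119), FGB was at 0.19 (P = 0.0115) and FGA at 0.17 (P = 0.172). Without replicate 9 of the low RFI pigs fed LF, FGG was at 0.10 (P = 0.0756) and FGB at 0.13 (P = 0.105). For diet FGA had the largest difference, -0.22 (SE 0.13, P = 0.0974).

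Levels of the members were then followed across pigs, as residuals from the 4 group means (n = 48 livers, 2-sided permutation tests with 100000 resamples, Benjamini-Hochberg over 17 pairs). The fibrinogen chains varied together. FGB and FGG had r = 0.91 (rho = 0.90), FGA and FGB r = 0.85 (rho = 0.85) and FGA and FGG r = 0.84 (rho = 0.85), each with an adjusted P of 2.12e-05 from a permutation P of 1e-05, the smallest they can give. Without the 2 pigs farthest from the median, r was 0.87, 0.79 and 0.80. C5 followed FGG (r = 0.82, rho = 0.73) and FGB (r = 0.80, rho = 0.70), with permutation P of 1e-05 and adjusted P of 2.12e-05, and with r of 0.74 and 0.71 without the 2 farthest pigs. The C5 pairs were among 7 of the 17 chosen after their values were seen.

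Other pairs of members that work together or lie side by side were followed in the same way. C1R and C1S, also neighbours, had r = 0.51 (rho = 0.51, permutation P = 0.00027, adjusted P = 0.000417; r = 0.48 without 2 pigs). C8A, on its brightest probe, and C8B, neighbours too, had r = 0.31 (rho = 0.32, permutation P = 0.029, adjusted P = 0.0332), which fell to 0.22 without 2 pigs. It was 0.18 on the first scan day and 0.58 on the second. F2 and PLG had r = 0.59 (rho = 0.59, permutation P = 3e-05, adjusted P = 5.67e-05; 0.59 without 2 pigs). MASP2 and MBL2 had r = 0.58 (rho = 0.51, permutation P = 4e-05, adjusted P = 6.8e-05; 0.54 without 2 pigs), with r of 0.28 on the first scan day and 0.71 on the second, a pair chosen after its values were seen. MBL2 ran against FGA, with r = -0.44 (rho = -0.57, permutation P = 0.0017, adjusted P = 0.00229; -0.54 without 2 pigs), also chosen afterwards. FGB and C9 had r = -0.11 (rho = 0.26, permutation P = 0.42, adjusted P = 0.423), and r was 0.30 without the 2 pigs farthest in FGB.

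CFP varied with genes of macrophages and leukocytes. It had r = 0.48 with the macrophage gene CD68 (rho = 0.48, permutation P = 0.00048, adjusted P = 0.00068; 0.45 without 2 pigs). It had r = 0.76 with C1QA, a chain of C1q made by macrophages (rho = 0.72; 0.76 without 2 pigs). It had r = 0.77 with ITGB2, the beta chain of leukocyte complement receptors (rho = 0.76; 0.78 without 2 pigs), and r = 0.65 with VSIG4 (rho = 0.65; 0.67 without 2 pigs). The last 3 were chosen after their values were seen, and each had a permutation P of 1e-05 and an adjusted P of 2.12e-05. C7 had r = 0.32 with the fibroblast gene DCN (rho = 0.30, permutation P = 0.029, adjusted P = 0.0332), which fell to 0.20 without 2 pigs. F8 had r = -0.15 with the endothelial gene STAB2 (rho = -0.12, permutation P = 0.33, adjusted P = 0.348).

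Over the 703 pairs of members the median r was 0.20 (quartiles -0.01 and 0.38), and 18 pairs, or 2.56%, exceeded 0.7. Over all pairs of 10526 named genes without a missing value the median was 0.01 (quartiles -0.14 and 0.16), and 0.16% exceeded 0.7. These are descriptions over genes that share livers and arrays. Besides the fibrinogen chains with C5, the pairs above 0.7 included CFB with PLG (0.82), CFB with SERPING1 (0.79), VTN with CPB2 (0.79), C1R with CFB (0.78) and F9 with PROS1 (0.77).

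**Figure D5:**
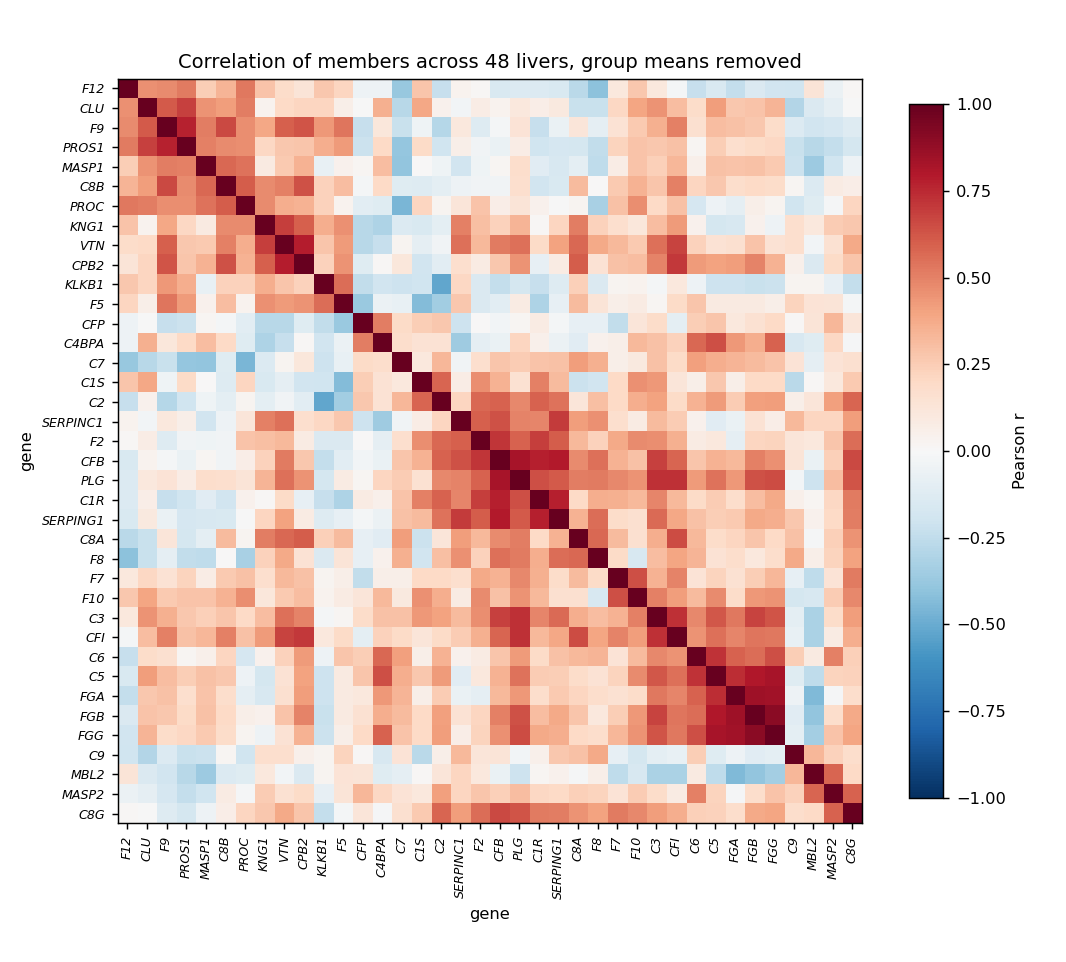
Pearson r between the 38 members across 48 livers after removal of the 4 group means (rows and columns in the same order, from average linkage on 1 minus r; colour from -1 in blue to 1 in red). FGA, FGB, FGG and C5 form the dark block at the lower right, with r between 0.74 and 0.91.

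The liver of replicate 12 of the high RFI pigs fed LF held the highest fibrinogen. Relative to the median of its group it was higher by 1.30 for FGA, 0.85 for FGB, 0.66 for FGG, 0.90 for C5, 0.77 for C4BPA, 0.64 for C6 and 1.08 for C7, and it was lower by -0.74 for KLKB1. C9, at 7.04 the highest of the 48 livers, deviated there by 0.80, and MBL2 by -0.96. Of 12 acute phase proteins tested, SAA1, SAA3, CRP, LBP, ITIH4, CP and SERPINA3 had their highest level of the 48 livers there, with SAA1 3.81 and CRP 2.60 above the group median. The other 5 did not: HP ranked 4, HPX 5, ITIH3 17, HAMP 25 (-0.15 from the group median) and ORM1 33 (-0.10). C3, F2 and SERPINC1 deviated there by 0.15, 0.08 and -0.15.

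Other genes of the pathway were taken from a list of 46, of which 33 were tested. For line 3 were called, all lower in the low RFI line (9.09%, against 6.77% of named genes), and for diet 1 was called, higher with HF (3.03%, against 4.19%). CD55, which shields cells from complement, differed between lines by -0.39 (SE 0.14, limma P = 0.00581, P-BH = 0.101), and ITGB2 by -0.29 (SE 0.10, P = 0.00427, P-BH = 0.0828). F13A1, the catalytic chain of the fibrin cross-linking factor, differed by -0.80 (P = 0.00388) but was well above background on only 12 arrays. CD59, which blocks the pore on host cells, was 0.17 higher with HF (SE 0.05, P = 0.00137, P-BH = 0.0996).

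Of 10 genes that control the acute phase response, CEBPB alone was called between lines, at -0.29 (SE 0.11, limma P = 0.00768, P-BH = 0.12). That is 10%, against 6.77% of named genes. For diet 0 of 10 were called, against 4.19%. Of 12 acute phase proteins tested (15 listed), 0 were called for line or diet with limma, against 6.77% and 4.19% of named genes. For line 3 of the 12 had an unadjusted limma P under 0.05, against 14.7% of named genes. They were SAA1 at -0.76 (P = 0.0368), SAA3 at -0.71 (P = 0.026) and LBP at -0.52 (P = 0.0364). Leaving out replicate 12 of the high RFI pigs fed LF gave limma P of 0.0714, 0.0503 and 0.0708 for them. Leaving out replicate 9 of the low RFI pigs fed LF gave 0.0195, 0.0136 and 0.0221. For diet 1 of the 12 had an unadjusted P under 0.05, against 14.3% of named genes. In pigs fed HF alone, 7 of 12 were higher in the low RFI line (median 0.007), and limma called 0, with 0 at an unadjusted P under 0.05. In pigs fed LF alone, SAA1 (-1.35, P = 0.00989) and SAA3 (-1.22, P = 0.00742) were called, or 16.7%, against 3.66% of named genes. Without replicate 12 of the high RFI pigs fed LF neither was called (-1.02, P = 0.0328, and -0.94, P = 0.0245). Among markers of other cells, 8 hepatocyte, 8 stellate cell, 5 biliary and 7 T and NK cell markers were tested. For line 1 of each list was called, or 12.5%, 12.5%, 20% and 14.3%, against 6.77% of named genes. They were APOA1 (hepatocyte, 0.15), RGS5 (stellate cell and pericyte, 0.87, P-BH = 0.0384), KRT7 (biliary, -0.35) and CD247 (T and NK cell, -0.28). CD247 was also called for diet (0.40), or 14.3% of its list, against 4.19% of named genes. Without replicate 12 of the high RFI pigs fed LF the line calls of CD55, APOA1 and CD247 were lost (P = 0.0101, P = 0.0102 and P = 0.0143), and without replicate 9 of the low RFI pigs fed LF those of CEBPB, KRT7 and CD247 (P = 0.012, P = 0.0102 and P = 0.0147). No endothelial, neutrophil, adipocyte, erythrocyte or platelet marker was called for line or diet over all pigs. The 8 endothelial markers were all higher in the low RFI line (median 0.093), 1 at an unadjusted limma P under 0.05. With HF, 7 of 8 hepatocyte markers were lower and 1 higher (median -0.079). Of these 8, 4 had an unadjusted limma P under 0.05 for diet, against 14.3% of named genes. The 5 biliary markers were all higher with HF (median 0.307), 2 at an unadjusted P under 0.05. The part of these cells in the members' differences was not tested.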

How the data were processed

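Liver RNA of 48 pigs was measured with 1 array per pig, and groups were taken from the labels. The authors deposited the scanner output, with a mean, median, local background and background-subtracted intensity per spot, not normalized between arrays. A second deposited table holds log2 values and equals the log2 median intensity minus a constant per array (SD of the difference at most 2.24e-07), used here as an alternative. Per the labels, the submitters used R 2.10.0. The aligner of probes to genes and a genome build are not given in the sources used here.

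The background-subtracted intensities were used. Control spots were left out, 483 outlier spots were set to missing, 0 spots were saturated, and log2 values were centred on the array median. The test took in 45236 of 60305 probes, those that exceeded background on 12 arrays or more. Symbols came from the reference table where it holds a probe's accession (6966 probes), otherwise from the scanner output (17002 probes). A further 36337 probes stayed unnamed.

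A model with line, diet and interaction was fitted over all tested probes with limma 3.58.1 in R 4.3.3 (prior degrees of freedom 2.8). Calls needed P under 0.01 and FC over 1.1, the cut-offs of the methods, and P-BH was taken over all probes. In each role group the members with the largest line and diet difference were named, with all called members. The members, lists and tests were chosen with earlier results of these data known. C9, MBL2, the second probes of C8A and CFI, and the livers that stood apart were singled out after their values were seen. On simulated data of 24 arrays against 24 and 45236 probes, calls were made for 65% of the 200 probes given an FC of 1.2, 90% at 1.41, 98% at 2, and 0.876% of unchanged probes. The number of arrays limits the precision.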

Additional observations from a re-analysis of the deposited data

How the results depend on the processing

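The 17 alternatives were an ANOVA without moderated variances, 75th percentile centring, quantile normalization, normexp (offset 50), the median signal, other probe filters, outlier spots kept, slide or scan day as a block, each scan day alone, no interaction term, the deposited log2 values, each gene's mean over its probes and, chosen after seeing the data, 2 fits without 1 liver. CLU, CFP and C5 kept their sign in 17 of 17, with ranges of -0.311 to -0.276, -0.305 to -0.212 and -0.263 to -0.138, and so did MASP2 for diet (0.344 to 0.422). For line, 0 members were called on scan day 1 alone (24 arrays), 1 on scan day 2 alone (CLU) and 5 on the mean over all probes (MASP2, CFP, C5, C8A and CLU), while without replicate 12 of the high RFI pigs fed LF they were CFP, CLU and FGG. For diet, 2 were called with quantile normalization (MASP2 and KNG1), 4 with normexp (MASP2, CFP, KNG1 and PROS1), 2 without replicate 12 of the high RFI pigs fed LF (MASP2 and CFP) and 0 on scan day 2 alone, and on scan day 1 alone the 1 call was F10 (0.174, P = 0.00792) and not MASP2 (P = 0.015). C5 was not called with quantile normalization, normexp, the median signal, the deposited values, either day alone or without that liver. Diet differences, none of them called, changed sign for SERPINC1 (0.089 with quantile normalization, 0.035 with normexp, 0.017 with the median signal, 0.01 on scan day 2, 0.013 with the deposited values and 0.048 on the mean over probes), for CPB2 (0.015 on scan day 1), for C9 (-0.035 on scan day 1 and -0.066 without its lowest liver, but 0.209 without replicate 12 of the high RFI pigs fed LF) and for C4BPA (-0.012 on scan day 2). The line difference of SERPINC1 was -0.006 on scan day 2. The cause of these changes was not tested. The interaction had 0 members called in the 16 alternatives that could test it. No paired analysis was possible because the labels give every pig the same replicate number.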
